A study of Rattus norvegicus with 29 samples.

Results

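The subject is the 49 array probes whose position in the scanner files lies on the rat mitochondrial genome, measured in mononuclear cells from the blood of 29 rats (male, Wistar), 1 rat per array. They were all such probes of the 41012 on the array, and every one of them had Cy5 signal well above background on at least 4 arrays, the filter that 28242 probes passed. By the rule that defined the set, the 12 probes that start before base 2700 form the ribosomal RNA region and the other 37 the rest of the mitochondrial genome. The last probe inside this limit starts at base 2142 and the first outside it at base 4159, so no probe lies near the limit. The rats were 6 months old. One diet was standard chow (control), and the other added to it, for 4 months, an energy-dense cafeteria diet rich in fat that makes rats obese (cafeteria). On each diet there were fed rats, with food at will, fasted rats, kept 14 h from food, and refed rats, which ate at will for 6 h after such a fast. The control fed group had 4 rats and the 5 other groups 5 rats each. The submitters left out 1 further control sample for its low RNA amount. The mononuclear cells were separated from blood of the saphenous vein by a Ficoll density gradient alone, so fewer cells of a type and less RNA per cell cannot be told apart.

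The mitochondrial genome is a small circle that is transcribed from both strands into long precursors, which are cut at the transfer RNAs that lie between the other genes. One strand carries the genes of both mitochondrial ribosomal RNAs and of nearly all the proteins that this genome encodes, which are subunits of respiratory complexes I, III and IV and of the ATP synthase. The other strand carries few genes, so most RNA from it has no coding role and is normally removed. The gene of the small ribosomal RNA comes first, followed by that of the large ribosomal RNA, and together they are made in excess over the messenger RNAs. Platelets have no nucleus but hold mitochondria, while mature red cells have neither.

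Each value below is a log2 ratio of Cy5, the rat's own RNA, over Cy3, a reference pooled from all samples, and a difference between groups is a difference of mean log2 ratios with its standard error. A difference is called at an adjusted p under 0.05 in limma's moderated test, with Benjamini-Hochberg adjustment over all 28242 probes. The median Cy5 intensity of the arrays lay between 103.2 and 154.2 units, and between 53.1% and 66.6% of probes were well above background. The arrays lay on 8 slides. By the year in which their images were extracted they fall into 2 sets of 14 and 15 arrays, called extraction runs here. All arrays of a slide fall in the same run, so run and slide are not independent. Of the marker genes of the labelled cells, 11 of 12 for T cells, 6 of 10 for B cells, 8 of 10 for monocytes and 8 of 9 for NK cells were measured. Of 19 platelet markers 13 were measured, and of 10 erythroid markers 7 were.

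Strand is given as the order of the coordinates in the files shows it, and positions are on the rn4 build. In the ribosomal RNA region, 10 probes lay on the plus strand, which carries both ribosomal RNAs, and 2 on the minus strand. The 10 plus-strand probes fell into 2 segments, a division made after the values were seen. The first held 6 probes between bases 154 and 591, which the files name CB314431, AW920832 and, for the other 4 probes, AW914778. The second held 4 probes between bases 1284 and 1613, named TC639599, CF111195 (2 probes) and Ttr. The name Ttr belongs to transthyretin, a nuclear gene of a plasma carrier protein, and the position of the probe on the mitochondrial genome goes against it, so it is named here by position. The minus-strand probes were S63167 (chrM:516-575), which the files describe as the messenger RNA of a steroid-metabolising enzyme, and BF290649, which starts at base 2142. Neighbouring probes share sequence: each of the 5 probes from base 418 to 591 overlaps the next, so they do not measure independent RNA fragments.

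In the rest of the genome, 22 probes lay on the plus strand and 15 on the minus strand. The files name 17 of them for mitochondrial genes: ND2 (2 probes) and ND5 (1), subunits of complex I, COX1 (1), COX2 (7) and COX3 (1), the catalytic core of complex IV, CYTB (4), the cytochrome of complex III, and ATP6 (1), part of the proton channel of the ATP synthase. A further 3 plus-strand probes, BG667906, CF111229 and NP072018, lie within the span of the COX2 probes, so that span held 10 plus-strand probes. No probe value of the 49 was saturated or missing on any array. On all 29 arrays 47 of them were well above background, and the other two, AA955406 on 17 arrays and AA858640 on 26, lie on the minus strand.

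Taking the median over the 12 probes of the ribosomal RNA region in each rat, control rats averaged 0.30 ± 0.31 (SD, n = 4) when fed, 0.88 ± 0.50 (SD, n = 5) when fasted and -0.13 ± 0.40 (SD, n = 5) when refed. Cafeteria rats averaged -0.16 ± 0.17, -0.16 ± 0.35 and -0.41 ± 0.40 (SD, n = 5 each) in the same states. Control fasted rats thus had the highest and cafeteria refed rats the lowest group mean of the region. Over the 37 other probes the group means were 0.055 ± 0.039, 0.14 ± 0.12 and 0.023 ± 0.14 in fed, fasted and refed control rats and 0.060 ± 0.046, 0.064 ± 0.054 and -0.048 ± 0.14 in cafeteria rats. Per-rat values below follow the order of the rat numbers: 1, 4, 7 and 13 in control fed, 1, 4, 7, 10 and 13 in cafeteria fed, 2, 5, 8, 11 and 14 in the fasted and 3, 6, 9, 12 and 15 in the refed groups. The numbers are the labels' own and rats with the same number on different diets are different rats.

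Comparing refed with fasted control rats asks what food after a short fast does to the RNA of these cells. The ribosomal RNA region was lower after refeeding: 10 of its 12 probes were called as lower. Elsewhere on the mitochondrial genome 4 of the 37 probes were called as lower, and none of the 49 was called as higher. Over all 28242 probes, 9.01% were called in this comparison, 5.94% as lower and 3.07% as higher. The 14 calls among the 49 thus exceed that share, and 10 of the 14 lie in the ribosomal RNA region. The median difference was -1.02 over the 12 probes of the ribosomal RNA region, -0.14 over the 37 others and 0.010 over all probes.

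The probe AW920832 (chrM:465-524, plus strand) had the strongest Cy5 signal of the first segment. It read 0.076, 0.13, 0.58 and 0.86 in control fed rats, 0.77, 1.62, 1.43, 1.40 and 0.15 in control fasted rats and -0.33, -0.69, -0.23, 0.72 and -0.60 in control refed rats. In cafeteria rats it read -0.36, -0.080, -0.64, 0.32 and -0.17 (fed), 0.58, -1.02, -0.62, -0.58 and 0.0045 (fasted) and -1.13, -0.55, -1.01, -0.64 and 0.71 (refed). Of the control fasted rats 4 were high and 1, rat 14, was low, and of the refed rats 4 were low and 1, rat 12, was high, so these groups overlap. The refed mean was lower by 1.29 ± 0.33 (adjusted p = 0.0132), a 2.45-fold difference. All 6 probes of the first segment were called, with differences from -1.29 to -1.13, with adjusted p from 0.00709 to 0.0133, and in each of them the values of the 2 groups overlapped.

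The other 5 probes of the segment held the rats in much the same order. CB314431 (chrM:154-212) read 0.66, 1.33, 1.03, 1.22 and 0.062 in control fasted, -0.32, -0.69, -0.16, 0.39 and -0.77 in control refed and 0.42, -0.98, -0.58, -0.46 and 0.10 in cafeteria fasted rats. The AW914778 probe from base 418 read 0.76, 1.45, 1.27, 1.39 and 0.34, -0.066, -0.49, 0.010, 0.61 and -0.48 and 0.56, -0.66, -0.28, -0.23 and 0.19 in the same groups. In both, rat 14 was the lowest of the control fasted rats and rat 12 the highest of the control refed rats, and rat 12 read above rat 14. The AW914778 probe from base 485 read 0.67, 1.40, 1.18, 1.33 and 0.026 in control fasted, -0.40, -0.78, -0.37, 0.64 and -0.76 in control refed and 0.35, -1.07, -0.73, -0.64 and -0.076 in cafeteria fasted rats. The remaining pair, from bases 510 and 532, ranged from -0.010 to 1.34 and from -0.046 to 1.29 in control fasted rats, and from -0.74 to 0.48 and from -0.85 to 0.52 in control refed rats. Control fed rats lay in between in the mean: 0.27 ± 0.25 (SD, n = 4) for CB314431 and 0.49 ± 0.34, 0.27 ± 0.40, 0.25 ± 0.33 and 0.22 ± 0.33 for the AW914778 probes in order of position.

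The probe CF111195 at chrM:1557-1613, with the strongest Cy5 signal of the whole region, separated the fasted from the refed control rats. Its log2 ratios were 0.54, 0.81, 0.56 and 0.58 in control fed, 0.82, 1.27, 1.22, 1.06 and 0.87 in control fasted and 0.17, -0.29, -0.14, 0.65 and 0.31 in control refed rats. In cafeteria rats they were -0.33, -0.17, -0.11, 0.049 and 0.088 (fed), 0.38, -0.52, -0.28, -0.25 and 0.097 (fasted) and -0.65, -0.53, -0.68, -0.29 and -0.090 (refed). Every control fasted rat lay above every control refed rat and above every cafeteria rat. Refed control rats were lower than fasted ones by 0.91 ± 0.16 (adjusted p = 0.00116), a 1.88-fold difference in the ratio, to which both channels added: Cy5 alone differed by -0.36 ± 0.086 (adjusted p = 0.00891) and the Cy3 reference by 0.56 ± 0.10 (adjusted p = 0.0568). The overlapping probe that the files name Ttr (chrM:1530-1589) read 0.80, 1.34, 1.31, 1.19 and 0.83 in control fasted and 0.22, -0.22, -0.093, 0.65 and 0.33 in control refed rats and fell by 0.91 ± 0.17 (adjusted p = 0.00158), again with no overlap. Median centring of the arrays without loess gave 5 calls among the 49 in place of 14, beside 3.26% of all probes. With the values that the authors deposited 9 were called, all in the ribosomal RNA region, beside 22% of all probes. Taken over all mitochondrial probes, the count of 9 is therefore not above the share of all probes in that setting. All 9 were lower, and the median of the ribosomal RNA region was -1.11 there, against 0.15 over all probes.

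The pair of probes at the start of the second segment cover almost the same bases, and 1 of them was called. TC639599 (chrM:1284-1346) read 0.39, 0.52, 0.52, 0.69 and 0.42 in control fasted and 0.042, 0.010, 0.071, -0.11 and 0.040 in control refed rats. Its refed values were all below the fasted ones, and their mean was lower by 0.50 ± 0.10 (adjusted p = 0.00284). CF111195 at chrM:1289-1348 read 0.38, 0.84, 0.86, 0.76 and 0.31 in control fasted and 0.35, 0.38, 0.16, 0.56 and 0.57 in control refed rats. Its groups overlapped, and its difference of -0.22 ± 0.12 was not called (adjusted p = 0.307).

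On the minus strand of the region, S63167 (chrM:516-575), the one with more signal, read 0.16, 0.22, 0.31, 0.47 and -0.22 in control fasted and -0.31, -0.34, -0.33, -0.19 and -0.41 in control refed rats. All but 1 of the fasted values lay above all refed values, and the mean fell by 0.50 ± 0.14 (adjusted p = 0.0195). This fall belongs to the ratio: with Cy5 alone the same probe differed by 0.53 ± 0.25, in the other direction (adjusted p = 0.211). Its Cy3 signal, from the same pool, also varied between arrays. Before normalization between arrays it lay between 9.92 and 10.89 on the log2 scale in control fasted and between 10.10 and 12.04 in control refed rats. BF290649, the other minus-strand probe, differed by -0.11 ± 0.071 (adjusted p = 0.411).

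Outside the ribosomal RNA region, the called falls after refeeding in control rats were in complex I genes and 1 minus-strand probe. ND5 (chrM:12852-12911), a subunit of the proton-pumping arm of complex I, read 0.12, 0.024, 0.18, 0.11 and 0.30 in control fasted and -0.17, -0.46, -0.28, -0.29 and -0.35 in control refed rats. The groups did not overlap, and control fed rats, at -0.17, -0.041, -0.23 and 0.17, overlapped both. ND5 fell by 0.46 ± 0.092 (adjusted p = 0.00245). ND2, another subunit of that arm, read 0.12, 0.022, 0.16, 0.24 and 0.45 in control fasted and -0.10, -0.25, -0.11, -0.10 and -0.14 in control refed rats at the probe from base 4448 (chrM:4448-4507). Each fasted value was above 0 and each refed value below. ND2 fell by 0.37 ± 0.095 at the probe from base 4159 (adjusted p = 0.0134) and fell by 0.34 ± 0.10 at the one from base 4448 (adjusted p = 0.0331). The fourth was AA850885, a dim minus-strand probe from base 6108, which fell by 0.33 ± 0.093 in the ratio (adjusted p = 0.0232). Its Cy5 before normalization between arrays lay between 8.95 and 9.18 in control fasted rats. In control refed rats it was 10.51 and 10.32 in rats 6 and 15 and 8.77 to 9.13 in the others. On the same arrays the dimmer AA955406 read 10.08 and 9.89, against 6.41 to 6.94 in the others of the group. Whether this altered the ratios of dim probes was not tested.

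The probes of complexes III and IV and of the ATP synthase gave differences that were not called. Of the 37 probes outside the ribosomal RNA region, 14, or 37.8%, had an unadjusted p under 0.05 in limma, against 21.9% of all probes. The fall is thus not shown to be confined to complex I. The COX2 probe with the strongest signal (chrM:7585-7644) read 0.20, -0.43, 0.11 and 0.071 in control fed, -0.016, -0.12, 0.17, 0.20 and 0.10 in control fasted and 0.16, 0.061, -0.013, 0.37 and 0.32 in control refed rats. Its values were 0.27, 0.19, 0.096, 0.20 and -0.078 in cafeteria fed, 0.18, -0.013, -0.0045, 0.11 and 0.051 in cafeteria fasted and -0.099, 0.30, -0.11, 0.11 and -0.10 in cafeteria refed rats. All 6 groups overlapped, and the difference between refed and fasted control rats was 0.11 ± 0.10 (adjusted p = 0.576). Over the 10 plus-strand probes of the COX2 span the median difference was 0.035, with 6 above 0 and 4 below. Over the plus-strand probes of the CYTB span, the per-rat median averaged 0.28 ± 0.10 in control fasted and -0.00062 ± 0.21 in control refed rats (SD, n = 5 each). For each other gene the probe with the strongest signal is given. COX1 (chrM:6402-6461) read 0.19, 0.19, 0.29, 0.46 and 0.50 in control fasted and 0.11, -0.42, -0.21, 0.44 and -0.20 in control refed rats. ATP6 (chrM:8305-8364) read 0.035, 0.17, 0.20, 0.34 and 0.098 in control fasted and 0.034, -0.074, -0.20, 0.28 and 0.095 in control refed rats. Refed rat 12 in COX1 and refed rats 12 and 15 in ATP6 lay within the range of the fasted rats. COX3 (chrM:8715-8774) read -0.0096, -0.096, 0.21, 0.19 and 0.26 in control fasted and -0.064, -0.21, -0.31, 0.23 and -0.0050 in control refed rats. CYTB (chrM:14965-15024) read 0.26, 0.19, 0.28, 0.41 and 0.28 in control fasted and 0.29, 0.11, 0.12, 0.35 and 0.081 in control refed rats. All 4 genes overlapped between the groups, and they differed by -0.38 ± 0.18 for COX1 (adjusted p = 0.197), -0.14 ± 0.10 for ATP6 (adjusted p = 0.453), -0.18 ± 0.10 for COX3 (adjusted p = 0.303) and -0.093 ± 0.086 for CYTB (adjusted p = 0.587). Across all groups, the means of CYTB lay between 0.042 and 0.28, those of ATP6 between -0.026 and 0.17 and those of COX3 between -0.071 and 0.11. On the minus strand of the rest, 12 of 15 differences lay below 0, with a median of -0.21, against 16 of 22 and -0.14 on the plus strand.

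Comparing cafeteria with control rats, both fasted, asks whether the diet alters the fasted state. The ribosomal RNA region was lower in cafeteria rats: 9 of its 10 plus-strand probes were called lower, while none of the other 40 mitochondrial probes was. Over all probes 1.13% were called, 0.977% as lower. The median difference was -1.16 in the ribosomal RNA region, -0.066 in the rest and 0.010 over all probes. The CF111195 probe at base 1557 was lower by 1.16 ± 0.16 (adjusted p = 0.000395), a 2.24-fold difference in the ratio, in which the groups did not overlap. Cy5 alone differed by -0.45 ± 0.086 (adjusted p = 0.0257), and in Cy5 before normalization between arrays cafeteria rat 2 lay above control rat 14. The Cy3 reference differed by 0.64 ± 0.10 (adjusted p = 0.0101). AW920832 was lower by 1.40 ± 0.33 (adjusted p = 0.0384), a 2.63-fold difference, with overlap through control rat 14 and cafeteria rat 2, and its Cy5 difference of -0.98 ± 0.27 was not called (adjusted p = 0.119). Over the 4 second-segment probes the medians were -0.87 (ratio), -0.43 (Cy5) and 0.41 (Cy3). CF111195 at base 1289, which was not called on refeeding, was lower by 0.58 ± 0.12 here (adjusted p = 0.0213), without overlap. The cafeteria fasted rats read 0.13, 0.00039, -0.24, 0.085 and 0.26 at this probe, all below the lowest control fasted rat. Among the messenger RNAs, the differences were -0.38 ± 0.18 for COX1 (adjusted p = 0.305), -0.21 ± 0.092 for ND5 (adjusted p = 0.263) and -0.055 ± 0.10 for ND2 at base 4448 (adjusted p = 0.843).

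This diet difference and the refeeding difference in control rats share the same 5 control fasted rats, the group with the highest values, so neither is evidence for the other. Leaving out single rats moved the count of 9. It was 2 without control fasted rat 5 or 8 and 2 without cafeteria fasted rat 5 or 8. It was 3 without control fasted rat 11 or cafeteria fasted rat 11, and 4 without cafeteria fasted rat 14. Median centring in place of loess and the authors' value table both gave 0, beside 0.103% and 0.0843% of all probes. Processed signals of the scanner software and Cy5 alone both gave 2, beside 0.159% and 0.223%.

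Averaged over the 3 feeding states, cafeteria rats were again lower in the ribosomal RNA region. All 10 plus-strand probes and the minus-strand probe BF290649 were called lower, as was 1 probe elsewhere. Over all probes 3.91% were called, 3.09% as lower. The median difference was -0.67 in the ribosomal RNA region, -0.048 in the rest and 0.0069 over all probes. The smallest adjusted p of the whole set was that of CF111195 at base 1557, which was lower by 0.82 ± 0.094 (adjusted p = 7.78e-06), followed by the probe named Ttr, which was lower by 0.82 ± 0.098 (adjusted p = 1.15e-05). In the first segment the 6 differences ran from -0.76 to -0.62, with adjusted p from 0.0146 to 0.0385. Median centring without loess called none of the 49, beside 0.326% of all probes. The authors' value table called 6, of which 5 were lower and 1 higher, beside 6.01% of all probes. Of these 6, 4 lay in the ribosomal RNA region. Cy5 alone gave BF290649 a difference of 0.050, in the other direction.

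The probe outside the region was AI170501 (chrM:9500-9559), the minus-strand probe of the rest with the strongest signal. It read 0.29, 0.11, 0.69 and 0.034 in control fed, -0.13, -0.11, 0.12, 0.13 and -0.039 in control fasted and 0.37, 0.36, -0.059, 0.23 and 0.22 in control refed rats. In cafeteria rats it read 0.27, -0.23, 0.00027, -0.72 and -0.26 (fed), 0.036, -0.55, -0.26, -0.35 and -0.20 (fasted) and -0.090, -0.48, -0.11, -0.39 and -0.42 (refed). The refed groups did not overlap, with every cafeteria value below every control value, while the fed and the fasted groups overlapped. AI170501 was lower by 0.42 ± 0.084 in cafeteria rats (adjusted p = 0.0029), and Cy5 alone gave -0.43 ± 0.086. The plus-strand COX3 probe, the nearest named gene before it, differed by -0.0023 ± 0.059 (adjusted p = 0.992).

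Within the fed and the refed state, none of the 49 probes was called between diets. The shares over all probes were 0.00354% in fed and 0.368% in refed rats, and 4 and 6 of the 49 had an unadjusted p under 0.05 in limma (4.87% and 8.43% of all probes). The 12 differences of the ribosomal RNA region all lay below 0 in both states, with medians of -0.54 (fed) and -0.28 (refed). The CF111195 probe at base 1557 differed by -0.71 ± 0.17 between cafeteria fed and control fed rats, with no overlap (adjusted p = 0.252). Between the refed groups it differed by -0.59 ± 0.16, with overlap (adjusted p = 0.105). Without cafeteria refed rat 12, 1 probe was called lower between the refed groups.

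Fasting against the fed state asks how a night without food shifts the same RNA. None of the 49 probes was called in either diet, where 0.0814% of all probes were called in control and 0.821% in cafeteria rats. In control rats 44 of the 49 differences lay above 0, and 6, or 12.2%, had an unadjusted p under 0.05, near the 11.5% of all probes. The median was 0.49 in the ribosomal RNA region, where all 12 lay above 0, and 0.086 in the rest. CF111195 at base 1557 differed by 0.43 ± 0.17 (adjusted p = 0.307), and its fasted and fed control values did not overlap. In cafeteria rats the medians were -0.061 and 0.020, and no probe of the 49 had an unadjusted p under 0.05, against 10.4% of all probes.

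Refeeding of fasted cafeteria rats called none of the 49, against 1.32% of all probes, and 10 had an unadjusted p under 0.05, 20.4% against 13.1% of all probes. Of the 49 differences 46 lay below 0. The median was -0.21 in the ribosomal RNA region and -0.10 in the rest, and CF111195 at base 1557 differed by -0.33 ± 0.16 (adjusted p = 0.369). ND2 at base 4448 differed by -0.31 ± 0.10 (adjusted p = 0.14) and ND5 by -0.26 ± 0.092 (adjusted p = 0.195), the same direction as in control rats. With slide as a block, ND2 at base 4159 was called, with a difference of -0.40 (adjusted p = 0.048). Without cafeteria refed rat 12, 2 probes outside the ribosomal RNA region were called lower.

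Refed against fed rats asks whether the values after 6 h of food differ from those of rats that never fasted. No probe of the 49, and 0% of all probes, was called in either diet, while 5 of the 49 in control and 7 in cafeteria rats had an unadjusted p under 0.05 (5.68% and 4.2% of all probes). The ribosomal RNA region had medians of -0.55 in control and -0.31 in cafeteria rats, and the rest -0.057 and -0.098.

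Whether the diets differ in their response was tested as an interaction, and no probe was called in either interaction (0% of all probes in both). For fasting the median interaction was -0.54 in the ribosomal RNA region, with none of the 49 at an unadjusted p under 0.05, against 3.21% of all probes. For refeeding it was 0.74, with 8 of the 12 probes, including all 6 of the first segment, at an unadjusted p under 0.05, against 7.44% of all probes. The first segment had a median interaction of 1.03, with an adjusted p of 0.639 at AW920832, and CF111195 at base 1557 gave 0.58 ± 0.23 (adjusted p = 0.631). The fall after refeeding is thus not shown to differ between diets.

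Within a group, the probes of the first segment followed the same rats. Rat 12 was the highest of the control refed rats in all 6 probes, rat 15 the highest of the cafeteria refed rats in all 6 and rat 2 the highest of the cafeteria fasted rats in all 6. Rat 14 was the lowest of the control fasted rats in all 6. Per-rat medians of the segment ranged from -1.14 to 0.61 among cafeteria refed rats and from 0.044 to 1.37 among control fasted rats. In the second segment they spread less, from -0.50 to 0.027 and from 0.60 to 1.05 in the same groups.

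The reference channel moved with these results. Every array held the same Cy3-labelled pool, yet the Cy3 signal of the 4 second-segment probes differed between arrays of cafeteria and control rats, with a median difference of 0.35 over the 3 feeding states (higher with cafeteria rats). The channels were examined after the ratios were seen. The Cy5 signal alone had a median difference of -0.27 and the ratio one of -0.67. Both CF111195 probes were called in Cy3: the one at base 1557 differed by 0.42 ± 0.060 (adjusted p = 0.000513) and the one at base 1289 by 0.33 ± 0.044 (adjusted p = 0.000252), while 0.0212% of all probes were called in Cy3. At base 1557 Cy5 alone was lower by 0.35 ± 0.051 (adjusted p = 0.000119), so the difference in the ratio was larger than that in the rats' own channel. In the first segment the Cy3 difference was smaller, with medians of 0.082 for Cy3, -0.60 for Cy5 and -0.72 for the ratio. Between refed and fasted control rats, the second segment gave 0.30 (Cy3), -0.34 (Cy5) and -0.70 (ratio), and the first segment 0.13, -1.07 and -1.23. Cy5 alone called 11 of the 49 in that comparison and 9 in the diet comparison over all feeding states. It called 9.59% and 4.02% of all probes there.

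Platelet markers moved with the ribosomal RNA region in some comparisons and not in others. All 13 measured platelet markers were called lower in refed than in fasted control rats (median -1.57), beside 5.94% of all probes. Among them the chemokine Pf4 fell by 1.79 ± 0.43 (adjusted p = 0.0077) and Gp1bb, a subunit of the von Willebrand factor receptor, fell by 1.84 ± 0.36 (adjusted p = 0.00226), while Gp1ba, Itga2b, Tubb1, Gp6 and Selp were among those that did not pass the filter on dim probes. None was called between cafeteria and control fasted rats, where all 13 differences lay below 0 (median -0.68). Between cafeteria and control refed rats 11 of 13 lay above 0 (median 0.29), where the region had a median of -0.28, and on fasting of cafeteria rats 12 of 13 did (median 0.18), where the region had -0.061; none was called in either. In control rats the mean of the 13 ranged from -0.28 to 1.01 when fed, from 0.44 to 0.89 when fasted and from -1.35 to -0.19 when refed. In cafeteria rats it ranged from -0.78 to 0.45 (fed), from -0.39 to 0.28 (fasted) and from -1.60 to 0.36 (refed).

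Over the 29 rats, AW920832 rose with the platelet mean, with Pearson's r = 0.697 (permutation p = 2e-05, adjusted over 3 relations 6e-05) and Spearman's rho = 0.722 (permutation p = 3e-05, adjusted 9e-05). Without the 2 rats farthest from the median of the platelet mean r was 0.649, within the extraction runs it was 0.862 (14 rats) and 0.403 (15 rats), and over deviations from the group means 0.543. For CF111195 at base 1557 r was 0.683 (permutation p = 6e-05, adjusted 9e-05) and rho 0.674 (permutation p = 0.0001, adjusted 0.00015). Its r was 0.642 without the 2 farthest rats, 0.812 and 0.523 within the runs and 0.665 over deviations from the group means. For COX2 r was -0.278 (permutation p = 0.146, adjusted 0.146) and rho -0.22 (permutation p = 0.249, adjusted 0.249). Its r was -0.468 without the 2 farthest rats, 0.00203 and -0.578 within the runs and -0.238 over deviations from the group means. These p-values are for all 29 rats together, while the platelet mean and the 2 ribosomal RNA probes also differed between groups. They therefore do not separate a relation within groups from differences between groups, and the deviations were given no p.

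With the platelet mean as a covariate, the fall after refeeding in control rats was no longer called at any of the 49 probes, and only 4 of all probes were called. The platelet mean itself did not overlap between these groups, from 0.44 to 0.89 in fasted and from -1.35 to -0.19 in refed rats. This fit therefore cannot tell refeeding from platelet content, and the cause of the fall was not tested. The median of the ribosomal RNA region was then -0.38. The diet difference over the feeding states had 11 calls among the 49 with that covariate, beside 5.21% of all probes. All of them were among the 12 called without it, and CF111195 at base 1557 was lower by 0.74 ± 0.074 (adjusted p = 1.23e-06). Between the fasted groups 3 calls were left, beside 1.83% of all probes. They were all in the second segment, where the base 1557 probe was lower by 0.93 ± 0.13 (adjusted p = 0.00106). Between the refed groups the covariate added 2 calls, the base 1557 probe and the overlapping one named Ttr, beside 0.343% of all probes.

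The extraction runs were not balanced: run 1 held 4 of 5 control fasted arrays and 1 of 5 cafeteria fasted arrays. It also held 4 of 5 cafeteria fed and 1 of 5 cafeteria refed arrays. The comparisons of fasted or refed with fed cafeteria rats are therefore also mixed with run. On fasting of cafeteria rats, 0.821% of all probes were called as reported and 0.0496% with run as a block. In run 1 the mean of the base 1557 probe was 1.09 in 4 control fasted, -0.062 in 2 control refed and -0.52 in the single cafeteria fasted rat. In run 2 it was 0.87 in the single control fasted, 0.27 in 3 control refed and -0.013 in 4 cafeteria fasted rats. Control fed rats had 0.56 and 0.68 (2 rats in each run). AW920832 had means of 1.30, -0.51 and -1.02 in run 1 and 0.15, -0.036 and -0.15 in run 2 for the same groups. Its control fed mean was 0.47 in run 1, below the control fasted rats, and 0.36 in run 2, above the single control fasted rat there, rat 14, the lowest of its group. With run as a block 17 of the 49 were called between refed and fasted control rats, 7 between the fasted groups and 12 between diets over the feeding states. The shares of all probes called in that fit were 8.86%, 0.722% and 3.36%.

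A single probe of the 49 split the rats into 2 sets. BI395793 (chrM:6933-6992, minus strand) lay between -3.94 and -2.33 in 16 rats and between 0.68 and 1.87 in the other 13, with no rat in between. Its SD over the 29 rats was 2.28, the second highest of all 28242 probes, against 0.758 for the next mitochondrial probe. The high values were found in 2 of 4 control fed, 1 of 5 control fasted, 3 of 5 control refed, 4 of 5 cafeteria fed, 1 of 5 cafeteria fasted and 2 of 5 cafeteria refed rats, so each group held both kinds. Its Cy5 signal carried the split, between 7.99 and 9.34 on the log2 scale in the low rats and between 13.18 and 14.32 in the high ones. The Cy3 signal lay between 10.77 and 11.38 over all arrays. None of the differences between groups was called at this probe.

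The nuclear genes that serve mitochondrial RNA and the respiratory chain were called in few members. Of the 161 measured in 5 lists, 6.21% were called higher and 3.73% lower in refed against fasted control rats, beside 3.07% and 5.94% of all probes. In cafeteria rats 2.48% were called higher and none lower, beside 0.712% and 0.613%. On fasting 1 was called lower in control and 2 in cafeteria rats, 0.621% and 1.24%, beside 0.046% and 0.358% of all probes. Of 15 measured genes of mitochondrial transcription and replication, Mterf1 was lower in fasted than in fed rats in both diets. It was also higher in refed than in fasted rats. Both comparisons share the fasted rats, and the refed rats were other animals, so neither is evidence for the other. With extraction run or slide as a block, the share of all probes called on fasting of cafeteria rats dropped from 0.821% to 0.0496% or 0.00354%. The nuclear genes were not examined in those fits. Mterf1, a factor that binds the mitochondrial genome just behind the ribosomal RNA genes, fell by 0.47 ± 0.094 in control rats (adjusted p = 0.046) and fell by 0.42 ± 0.088 in cafeteria rats (adjusted p = 0.022). On refeeding it rose by 0.45 ± 0.088 in control (adjusted p = 0.0022) and 0.45 ± 0.088 in cafeteria rats (adjusted p = 0.0104). Its relative Mterf2 fell by 0.39 ± 0.085 on fasting in cafeteria rats (adjusted p = 0.0269) and rose on refeeding by 0.28 ± 0.085 in control (adjusted p = 0.0386) and 0.52 ± 0.085 in cafeteria rats (adjusted p = 0.00364). Tfam, which packs mitochondrial DNA and starts its transcription, rose by 0.20 ± 0.041 in refed control rats (adjusted p = 0.00281). Tefm, an elongation factor, rose by 0.43 ± 0.088 in refed cafeteria rats (adjusted p = 0.0124). In the list as a whole 3 genes were called higher in each refeeding comparison and none was called lower.

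Of 17 measured genes of mitochondrial RNA processing and stability, 2 were called higher in refed control rats and 1 in refed cafeteria rats. Trmt10c, a subunit of the enzyme that cuts transfer RNAs out of the precursors, rose in both, by 0.47 ± 0.12 (adjusted p = 0.0118) and 0.48 ± 0.12 (adjusted p = 0.0455). Lrpprc, which stabilises mitochondrial messenger RNAs, rose by 0.21 ± 0.064 in refed control rats (adjusted p = 0.0391). Of 7 regulators of mitochondrial biogenesis, the nuclear receptor Esrra rose by 0.31 ± 0.064 (adjusted p = 0.00276) and the coactivator Pprc1 by 0.32 ± 0.074 (adjusted p = 0.00614) in the same comparison. Of 67 measured mitochondrial ribosomal proteins and translation factors 2 were called higher there, Mrpl34 and Mrps14, and 1 lower: Mrps18c fell by 0.86 ± 0.20 (adjusted p = 0.0064). Of 55 nuclear subunits of the respiratory chain and ATP synthase 1 was called higher and 5 lower. Among the latter, Cox5a of complex IV fell by 0.80 ± 0.16 (adjusted p = 0.00261) and Ndufa1 of complex I fell by 0.72 ± 0.17 (adjusted p = 0.00605). The medians of these 5 lists in that comparison lay between 0.018 and 0.11, beside 0.010 over all probes.

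Between diets over the feeding states, 4 of these nuclear genes were called, all lower in cafeteria rats. That is 2.48% of the 161, no more than the 3.09% of all probes called lower. The coactivator Ppargc1b was lower by 0.38 ± 0.091 (adjusted p = 0.0138) and Mrpl45, a protein of the large mitochondrial ribosomal subunit, was lower by 0.27 ± 0.066 (adjusted p = 0.0167). Mrm1, which methylates the large ribosomal RNA, was lower by 0.14 ± 0.036 (adjusted p = 0.0237), and Mterf4, which takes part in building the ribosome, was lower by 0.12 ± 0.034 (adjusted p = 0.0406). Between the fasted groups none of the measured genes of these lists was called, and the 5 list medians lay between -0.00025 and 0.075.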

How the data were processed

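RNA of blood mononuclear cells was measured on 29 Agilent rat arrays, 1 rat each. Per the labels, Cy5 held the rat's RNA on every array and Cy3 a pool of all groups, without dye swap. The deposited spot intensities were read by Agilent Feature Extraction 9.5.1.1 and the probes placed on rn4, per the file headers. The log2 table of normalized Cy5 signal deposited by the authors was an alternative; its normalization is not given in the sources used here, its column medians lay between 9.37 and 9.76, and its slopes against the scanner signal lay between 0.986 and 1.03.

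Mean signals and local background were corrected with normexp (offset 50), ratios were loess-normalized within arrays without control spots and 5366 outlier spot values, and replicate spots were averaged (limma 3.58.1, R 4.3.3). Probes with Cy5 well above background on at least 4 arrays were kept, 28242 of 41012. All 6 groups entered 1 fit with empirical Bayes moderation, and 12 two-sided comparisons were made; the number of arrays limits the precision. Gene names came from the files, updated through RefSeq symbols (assembly GRCr8), which named 19358 probes; 151 names on other chromosomes than their probes were set aside. Correlations over rats used 100000 permutations. The scripts were tested on simulated data.

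Alternatives were the scanner software's processed signals, median centring, Cy5 alone, the authors' table, other filters, slide, extraction run or replicate number as a block, the platelet marker mean as a covariate and leaving out each rat. The probes described singly were the 12 with the smallest adjusted p in any comparison and the probe with the strongest Cy5 signal of each named gene and strand; others that passed the threshold were added and are named as called. The members, gene lists and this rule were chosen with earlier results of these data known, and the division at base 1000 and the view of each channel after the values were seen. No probe sequences were used here.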

Additional observations from a re-analysis of the deposited data

Results flagged for a closer look

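Of 114 combinations of a described probe and a group, 5 held 1 rat far outside the range of the others by Dixon's test, where chance gives about 1 in 20, or 5.7. In the first segment, CB314431 (chrM:154-212) read 0.67 in cafeteria refed rat 15 and -1.01 to -0.57 in the others of the group. Control refed rat 12 stood apart at the AW914778 probe from base 485, with 0.64 against -0.78 to -0.37, and at the one from base 510, with 0.48 against -0.74 to -0.43. At CF111195 from base 1557, control fed rat 4 read 0.81 and the others 0.54 to 0.58. At ND2 from base 4448, control refed rat 6 read -0.25 and the others -0.14 to -0.10. These are single rats, and the cause was not tested.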

How the results depend on the processing

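The number of mitochondrial probes called stayed within 1.5 times of that reported in 112 of 126 combinations of a comparison and an alternative. Most comparisons had 0 calls as reported, and 0 that stayed 0 counted among the 112. The 112 therefore say little about the comparisons with calls, whose counts are given next. The median of the ribosomal RNA region stayed within the spread between rats in 122 of 126 and that of the rest in 116 of 126. In what follows, the share of all probes called in the same setting stands in brackets. Between the fasted groups, the 9 calls became 2 with processed signals (0.159%), 0 with median centring (0.103%) and 2 with Cy5 alone (0.223%). They became 0 with the authors' table (0.0843%) and 3 with the platelet covariate (1.83%). Between refed and fasted control rats, the 14 became 5 with median centring (3.26%), 9 with the authors' table (22%) and 0 with the platelet covariate (0.0142%). Between diets over the feeding states, the 12 became 0 with median centring (0.326%) and 6 with the authors' table (6.01%). Calls rose from 0 to 1 on refeeding of cafeteria rats with slide as a block (1.59%) and to 2 between the refed groups with the platelet covariate (0.343%). The medians of the rest became -0.28 (control refed against fasted), -0.20 (control refed against fed), 0.042 (cafeteria refed against fed), 0.19 (diet, refed), 0.036 (fasting interaction) and 0.19 (refeeding interaction) with median centring; 0.040 (fasting interaction) with Cy5 alone; 0.065 (diet, fasted) and -0.17 (refeeding interaction) with the authors' table; and -0.022 (control refed against fasted) with the platelet covariate. The medians of the ribosomal RNA region became -0.77 (diet, fasted) with Cy5 alone and, with the platelet covariate, -0.38 (control refed against fasted), -0.097 (control refed against fed) and 0.32 (refeeding interaction). S63167 reversed to 0.53 (control refed against fasted) and BF290649 to 0.050 (diet over the feeding states) with Cy5 alone. With the authors' table, which holds 46 of the 49 probes, the median of all probes itself lay at up to 0.15; the causes were not tested.

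Leaving out each rat gave 11 to 17 calls between refed and fasted control rats, 2 to 9 between the fasted groups, 10 to 12 between diets over the feeding states, 0 to 2 on refeeding of cafeteria rats, 0 to 1 between the refed groups and 0 in the other 7 comparisons.

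No pairing of rats by the replicate numbers of the labels was apparent. Over 14 same-numbered pairs the correlation of deviations lay between -0.15 and 0.21, with 2 over 0.1. Such correlations cannot show that the numbers hold no pairing. With the replicate number as a block, 3 probes were called between the fasted groups and 4 between diets over the feeding states, beside 1.72% and 3.35% of all probes.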

Other observations

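Between refed and fasted control rats no measured marker of T cells (11), B cells (6), monocytes (8), NK cells (8), erythroid cells (7) or neutrophils (10) was called. Of all probes 9.01% were called there. The medians of these lists ran from -0.27 for erythroid cells, with all 7 below 0, to 0.24 for NK cells, with 6 of 8 above 0. These cell types are thus not shown to be unchanged. Over the feeding states 3 of the 63 markers of all 7 lists were called higher in cafeteria rats, 4.76% beside 0.818% of all probes. They were Ahsp, the chaperone of alpha globin, by 0.99 ± 0.25 (adjusted p = 0.0181), Camp, an antimicrobial peptide of neutrophil granules, by 0.80 ± 0.19 (adjusted p = 0.0142), and Cd72, a B cell receptor, by 0.47 ± 0.13 (adjusted p = 0.0321). All 7 erythroid markers lay above 0 there, with a median of 0.52. Their mean was -0.63 ± 0.20 (SD, n = 4) in control fed, -0.28 ± 0.79 in control fasted and -0.65 ± 0.81 in control refed rats (SD, n = 5 each). In cafeteria rats it was -0.29 ± 0.21 (fed), 0.0048 ± 0.29 (fasted) and 0.23 ± 0.70 (refed) (SD, n = 5 each).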
